A study of Homo sapiens with 3 samples.

Results

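The genes described here encode the proteins that cut introns out of messenger RNA precursors and choose which exons are kept. Of 40 such genes, 12 encode SR proteins and their Tra2 relatives, 12 encode heterogeneous nuclear ribonucleoproteins (hnRNPs), 7 encode proteins of the U2 particle or its branch-site recruiters, 5 encode U1, U5 or tri-snRNP proteins, and 4 encode kinases of the SR proteins. They were chosen by name, with earlier results of these data known. Each was read on its brightest probe set by 3-array mean, among probe sets annotated to that gene alone. That left 39 of 40 genes, out of 18132 genes read this way on the array. U2AF1, which encodes the small subunit of the factor that reads the 3′ splice site, is not among the 39, because both of its probe sets (2) are annotated to a second locus as well.

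The RNA came from KYSE150, an established human oesophageal squamous carcinoma line grown with fetal calf serum. The cells had been transfected with the empty vector (Control), with pcDNA3.1 carrying LOXL2 WT, or with pcDNA3.1 carrying LOXL2 delta72, and RNA was taken 48 h later. LOXL2 is a secreted and nuclear amine oxidase, and delta72 is a form that the labels name without further description. No selection of transfected cells is described, the pcDNA3.1 vectors drive their insert from a strong viral promoter, and the share of cells that took up plasmid is not given. Each condition has 1 array (n = 1), so no difference has a replicate check, no test was possible, and "higher" and "lower" below compare single arrays. In whole-culture RNA, fewer cells of a type and less RNA per cell cannot be told apart, nor can a small difference in every cell and a larger one in the transfected cells.

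Splicing is carried out by the spliceosome, in which the U1 particle marks the start of an intron, the U2 particle marks its branch point, and the U5 and U4/U6 particles bring the ends together. SR proteins, named for their arginine and serine rich tails, mostly bind exons and help the U1 and U2 particles to settle nearby, while hnRNPs coat the precursor and often compete with them. The kinases of the CLK and SRPK families phosphorylate the tails of SR proteins. Many SR and hnRNP genes hold back their own output by splicing part of their transcripts into forms that are retained or degraded.

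LOXL2 itself read log2 7.46 on the control array and 14.05 and 14.06 on the WT and delta72 arrays. The squamous cell markers were present, with all 9 that could be read above the filter used here, a mean of log2 5.27. Their summed linear signal was 17277, 15779 and 15096 on the control, WT and delta72 arrays. Of the 9, 6 were below control with each form, from KRT15, a basal keratin, at -1.0 and -0.90 to DSG3, a desmosome protein, at 0.34 and 0.22. Of other cell types, 3 of 7 leukocyte, 1 of 8 fibroblast and 4 of 8 endothelial markers passed the filter. Summed over each whole list, the leukocyte markers gave 665, 495 and 559 on the control, WT and delta72 arrays, the fibroblast markers 206, 211 and 204, and the endothelial markers 271, 274 and 270. Of the leukocyte list, PTPRC, present on all leukocytes, read between 2.83 and 3.08, below the filter, and CD68, a lysosomal macrophage marker, was the brightest at 8.97, 8.44 and 8.65. The 3′ minus 5′ difference of the ACTB control probe sets, a sign of RNA integrity and labelling length, was 1.26, 1.46 and 1.32 on those arrays. The same difference for GAPDH was -0.0058, 0.0029 and 0.0020 on the control, WT and delta72 arrays. The part of these shifts in the results below was not tested.

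With LOXL2 WT, the SR protein and hnRNP genes of the set mostly read higher than in the control, by small amounts. Its core particle genes did not lean one way. Further genes of these classes, described below, did not keep this split. Above control with WT were 21 of 24 further U1, U2, U5 and tri-snRNP genes. The same held for 9 of 20 further hnRNPs and related genes and 13 of 21 further SR and SR-related genes. Of the 39 genes, 26 were above 0 in LOXL2 WT minus Control, against 48% of the 12232 genes above the filter. The median difference of the 39 was 0.10 in log2 against -0.0094 over all genes, and it stayed above 0, at 0.05 to 0.06, under the other scalings tried. All 39 genes passed the filter. The limit used for single genes was 0.32 in log2, which is 25% more signal or 20% less. Past it upwards were 4 of the 39, HNRNPM, SRSF2, TRA2B and SRSF3, which is 10.3% against 9.92% of all genes, so that share is near the background. Past it downwards was 1, SNRNP70, or 2.56% against 7.12% of all genes. With the arrays shifted to a common median, the split of all genes turned to 7.82% up and 10.01% down, and SRSF3 fell short of the limit. None of the 39 (0) was 1.5-fold different, a size that 2.71% of all genes reached, and the furthest was HNRNPM at 1.41-fold.

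With LOXL2 delta72 the 39 genes lay closer to the control, as did genes on the whole array. The SD of the differences over all genes above the filter was 0.23 with delta72 and 0.26 with WT. Of the 39, 24 were above 0 in LOXL2 delta72 minus Control, against 49.7% of all genes, with a median of 0.05 against 0.00 over all genes. The number past 0.32 upwards was 0, against 7.52% of all genes, and the number past it downwards was 0 as well, against 4.72%. Closest to the limit were HNRNPM at 0.319 and SNRNP70 at -0.307, and each passed it under 1 other scaling. None (0) was 1.5-fold different, which 1.78% of all genes were. These values use the same control array as those for WT, and are given beside them without a count of shared genes.

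Between both LOXL2 arrays, which leaves the control array out, most of the 39 read lower with delta72. This comparison shares the WT array with LOXL2 WT minus Control. Its values follow from the comparisons above and are no separate reading. Of the 39, 12 were above 0 in LOXL2 delta72 minus LOXL2 WT, against 50.4% of all genes, and the median was -0.06 against 0.0013. No gene of the set (0) passed 0.32 upwards or downwards, which 1.55% and 0.981% of all genes did, or reached 1.5-fold in either direction, which 0.221% did. The range ran from HNRNPF at -0.22 to CLK1 at 0.18. This range lay inside the central 95% of all genes, from -0.25 to 0.28.

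**Figure D1:**
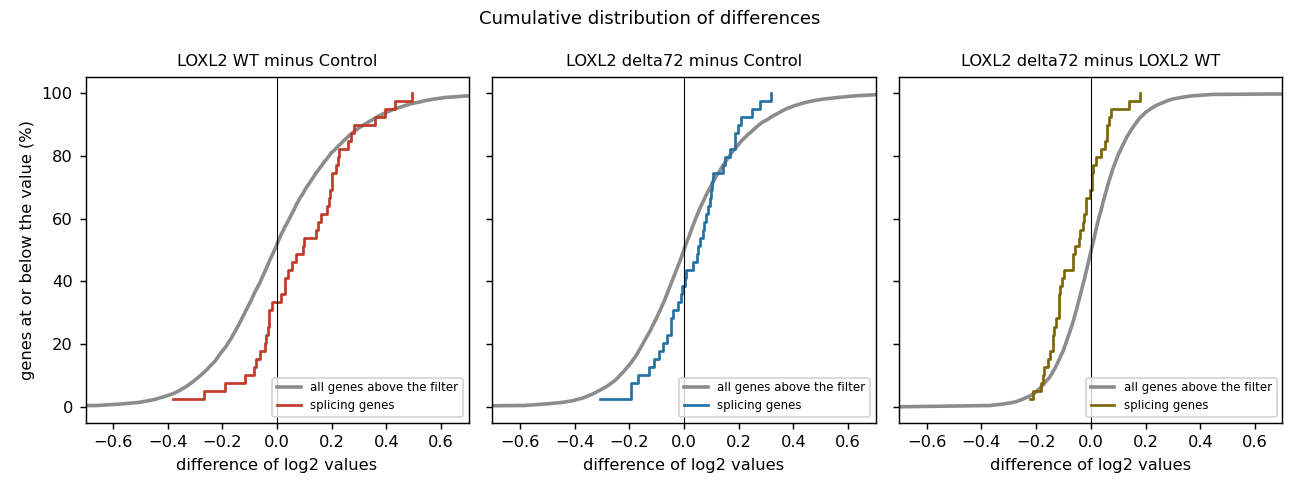
Cumulative share of genes (%, vertical) against the difference of log2 values (horizontal) for the 39 splicing genes (coloured steps) and all 12232 genes above the filter (grey), 1 panel per comparison. The splicing genes lie to the right of all genes in the middle of the WT panel (median 0.10 against -0.0094) and to the left in the delta72 minus WT panel (median -0.06 against 0.0013).

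For scale, the array carries 23 probe sets named by the array maker as background controls, and their largest difference between the WT and control arrays was 0.285. It was 0.173 between delta72 and control, and 0.152 between delta72 and WT. These are single probe sets, and no such value was made for the median of a list. A second measure of error is the spread of a gene's own probe sets, whose pooled SD over all genes was 0.170 for WT against control, 0.145 for delta72 against control, and 0.113 between both forms. It covers probes on the same arrays and no spread between cultures. An SD given below for a gene is taken around the mean of its probe sets above the filter. The value beside it is that of the brightest probe set, which can lie away from that mean.

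**Figure D2:**
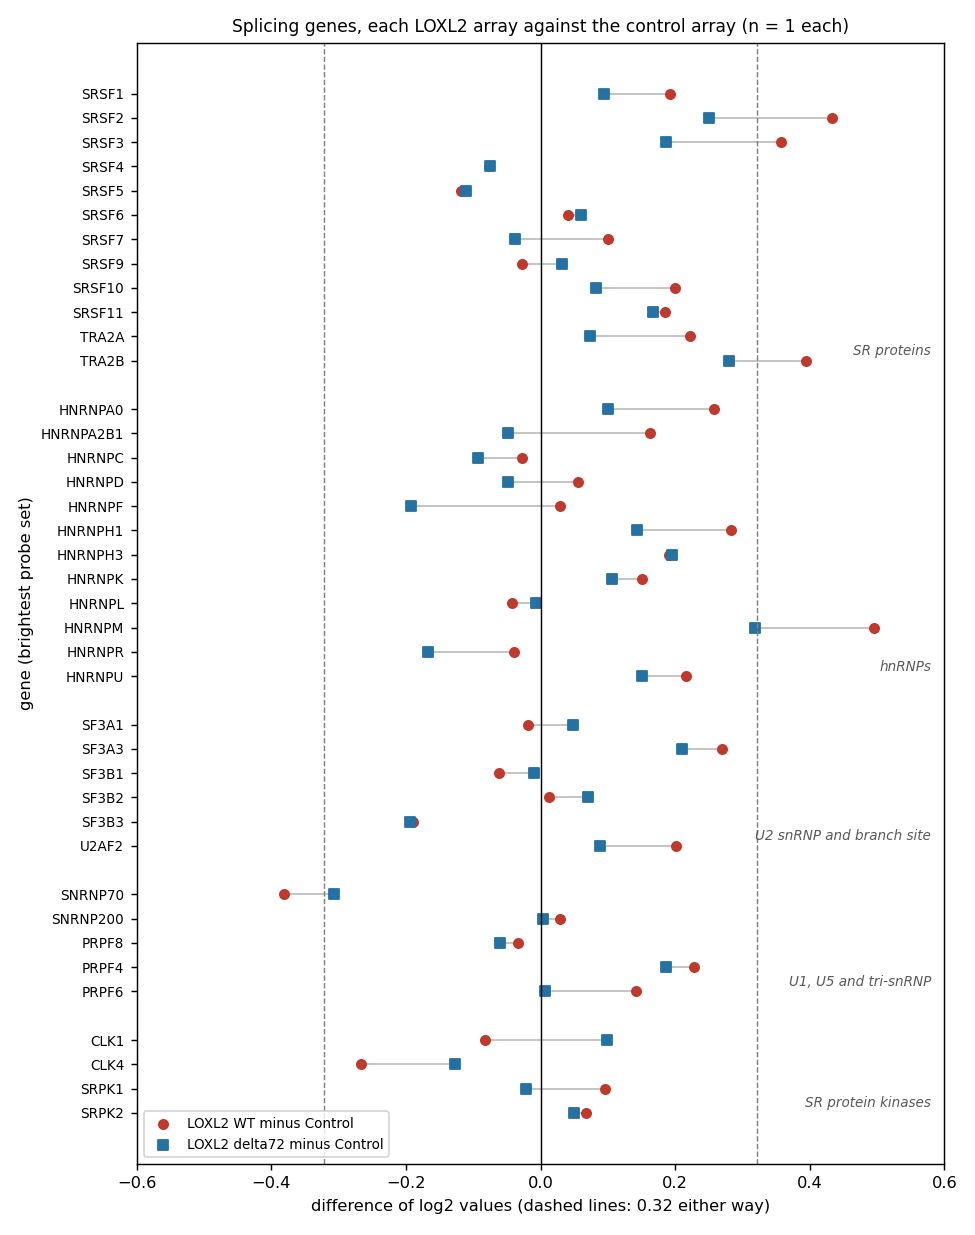
Difference of log2 values (horizontal) from the control array for each of the 39 genes (vertical, grouped by role), with LOXL2 WT as circles and LOXL2 delta72 as squares, n = 1 array each and dashed lines at the limit of 0.32. HNRNPM, SRSF2, TRA2B and SRSF3 lie beyond the right line with WT and SNRNP70 beyond the left one, and no square lies beyond either line.

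The SR proteins held 3 of the 4 genes past the limit with WT, or 25% of the 12 against 9.92% of all genes. Of the 12, 9 were above the control array with WT and 9 with delta72, against 48% and 49.7% of all genes, and the medians were 0.19 and 0.08. These medians stayed above 0 under each scaling tried, at 0.15 to 0.18 and 0.04 to 0.06. Between both forms 8 of 12 were lower with delta72, with a median of -0.11.

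SRSF2, an SR protein that activates exons and also acts in release of paused RNA polymerase, read log2 9.65, 10.08 and 9.90 on the control, WT and delta72 arrays. The control array was the lowest and the WT array the highest. It was 1.35-fold above control with WT (0.43, SD 0.09 over 3 probe sets) and 1.19-fold with delta72 (0.25, SD 0.11). All 3 probe sets were above 0 in both comparisons, from 0.26 to 0.43 with WT and from 0.04 to 0.25 with delta72, and all 3 were lower with delta72 than with WT, from -0.21 to -0.15.

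SRSF3, the smallest of the classical SR proteins and also an adaptor for export of messenger RNA, read 11.91, 12.27 and 12.10 on the control, WT and delta72 arrays. The order of the arrays is that of SRSF2. Its brightest probe set was 1.28-fold above control with WT (0.36, SD 0.08 over 6 probe sets) and 1.14-fold with delta72 (0.19, SD 0.02). All 6 probe sets above the filter were higher on both LOXL2 arrays, and the 3 brightest gave 0.34 to 0.36 with WT while the 3 dimmer ones gave 0.46 to 0.50. Another, at a mean level below the filter, differed by 0.07 with WT and -0.23 with delta72.

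TRA2B, the Tra2 protein that binds GAA-rich exon enhancers, read 11.18, 11.58 and 11.46 on the control, WT and delta72 arrays. Here too the control array was lowest and the WT array highest. It was 1.31-fold above control with WT (0.40, SD 0.07 over 9 probe sets) and 1.21-fold with delta72 (0.28, SD 0.06). Every one of the 9 probe sets above the filter lay between 0.38 and 0.59 with WT, between 0.26 and 0.43 with delta72, and between -0.16 and -0.07 in delta72 minus WT. TRA2B was the gene of the set with the most probe sets that all lay on 1 side in all comparisons. Taken as the median of its probe sets, TRA2B passed 0.32 with delta72 as well, at 0.35.

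TRA2A, the paralogue of TRA2B, read 9.31, 9.53 and 9.38 on the control, WT and delta72 arrays, a WT difference of 0.22 (SD 0.37 over 5 probe sets). Its probe sets split. With WT, 4 lay between 0.13 and 0.27, whereas 1 that read 9.03, 8.41 and 8.58 on the same arrays differed by -0.62 with WT and -0.45 with delta72.

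SRSF1, the founding SR protein of this family, read 10.95, 11.14 and 11.05 on the control, WT and delta72 arrays. The brightest probe set was 0.19 higher with WT and 0.09 higher with delta72, but the probe sets did not share a direction (SD 0.31 over 6 probe sets with WT). They ranged from -0.29 to 0.65 with WT and from -0.35 to 0.30 with delta72. In delta72 minus WT, all 6 were below 0, from -0.34 to -0.06. The median over the 6 probe sets was 0.04 with WT and -0.11 with delta72, so the direction of SRSF1 with delta72 depends on the probe set taken.

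SRSF10, a splicing repressor that is activated when it loses phosphate under heat shock, read 9.53, 9.73 and 9.61 on the control, WT and delta72 arrays. All 7 of its probe sets were higher with WT, from 0.16 to 0.53, and all 7 were higher with delta72, from 0.05 to 0.29. SRSF11, an SR protein that associates with U2AF, read 11.14, 11.32 and 11.30 on the control, WT and delta72 arrays, and 4 of its 6 probe sets were above 0 with each form. SRSF7, an SR protein with a zinc knuckle, read 11.27, 11.37 and 11.23 in the same order, so that WT was highest and delta72 lowest. Its 4 probe sets were all above 0 with WT (0.06 to 0.15) and all below 0 with delta72 (-0.18 to -0.02).

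The remaining 4 SR genes stayed within 0.12 of the control on both arrays, on their brightest probe sets. SRSF4 read 9.99 on the control array and 9.92 on both LOXL2 arrays, on its single probe set. SRSF5, whose transcript is known to respond to insulin and growth signals, read 10.35, 10.23 and 10.24 on the control, WT and delta72 arrays, and its 10 probe sets above the filter were divided, with 4 above 0 with WT and 5 with delta72. SRSF6 read 9.43, 9.47 and 9.49 in that order, and SRSF9 12.31, 12.28 and 12.34. The second SRSF6 probe set differed by 0.29 with WT and 0.18 with delta72. A dim SRSF9 probe set differed by -0.50 with WT while the other 3 lay between -0.09 and 0.08.

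**Figure D3:**
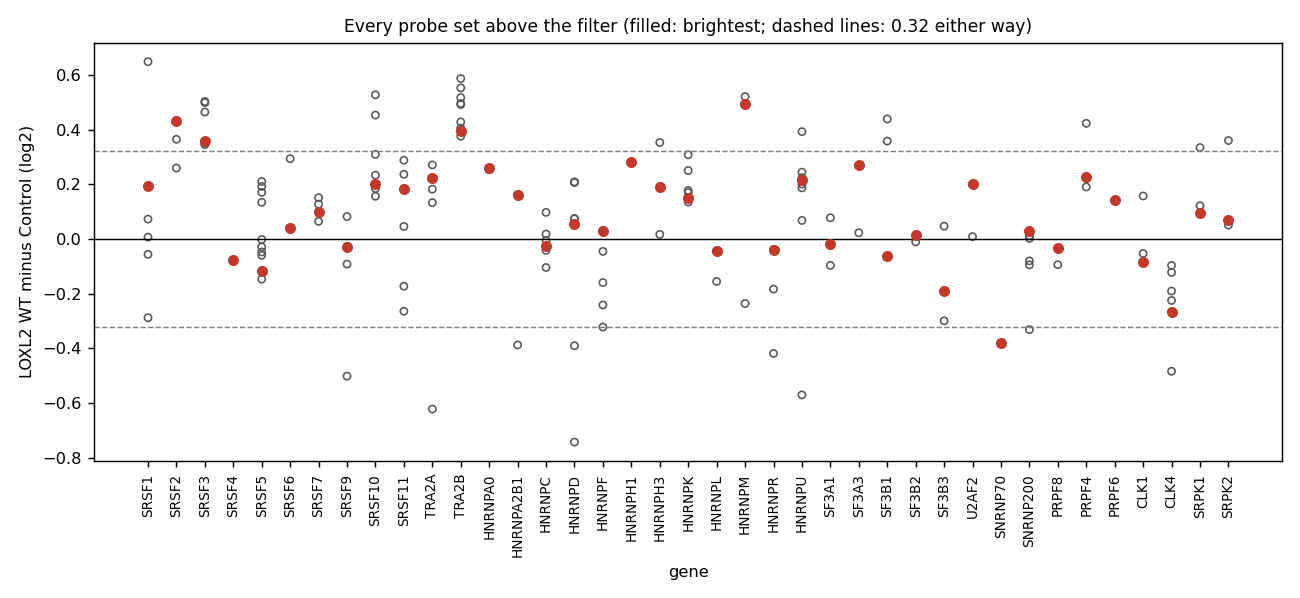
LOXL2 WT minus Control in log2 (vertical) for every probe set above the filter of each of the 39 genes (horizontal), with the brightest probe set filled and dashed lines at the limit of 0.32. The probe sets of TRA2B, SRSF3 and SRSF2 all lie above 0, whereas single probe sets of TRA2A, HNRNPD and HNRNPU lie at -0.62, -0.74 and -0.57, far from the others of the same gene.

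The hnRNP genes leaned the same way with WT and less so with delta72. Of the 12, 9 were above 0 with WT (median 0.16) and 6 with delta72 (median 0.05), against 48% and 49.7% of all genes. With the median over each gene's probe sets, 7 were above 0 with WT (median 0.12) and 6 with delta72 (median 0.02). Between both forms 10 of 12 were lower with delta72, with a median of -0.12, and the signs of these 3 medians were kept under each scaling tried.

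HNRNPM, an RNA-binding protein known for its part in exon choice during epithelial to mesenchymal transition, had the largest WT difference of the 39. It read 11.02, 11.52 and 11.34 on the control, WT and delta72 arrays, 1.41-fold above control with WT (0.49, SD 0.43 over 3 probe sets). The second probe set had the same pattern, at 10.57, 11.10 and 10.91. The dimmest went the other way, at 9.88, 9.64 and 9.57, or -0.24 with WT and -0.31 with delta72.

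Of the proteins that bind G-rich runs, HNRNPH1 read 10.56, 10.85 and 10.71 on the control, WT and delta72 arrays, on 1 probe set. HNRNPH3 read 10.32, 10.51 and 10.52 on the same arrays, with 3 of 3 probe sets above 0 with WT and 2 of 3 with delta72. HNRNPF, their close relative, read 11.53, 11.56 and 11.34. It was the lowest gene of the set in delta72 minus WT (-0.22), and all 7 of its probe sets were below 0 in delta72 minus Control, from -0.40 to -0.14. With WT its probe sets split, with 3 above 0 and 4 below, from -0.32 to 0.03. In delta72 minus WT, 6 of the 7 were below 0, from -0.22 to 0.01 over all 7.

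HNRNPA0 read 9.80, 10.06 and 9.90 on the control, WT and delta72 arrays, and its 2 probe sets gave 0.26 and 0.25 with WT. HNRNPA2B1, a reader of UAG motifs that also acts in RNA transport, read 12.55, 12.71 and 12.50, whereas its second probe set read 9.67, 9.28 and 9.31. With WT the brightest differed by 0.16 and the second by -0.39, so the sign of HNRNPA2B1 rests on the probe set.

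HNRNPU, a nuclear matrix protein that binds RNA and chromatin, read 10.90, 11.12 and 11.05 on the control, WT and delta72 arrays. Of its 8 probe sets above the filter, 7 were above 0 with WT, from 0.07 to 0.39, and 1 stood apart at -0.57 with WT and -0.55 with delta72. HNRNPK, which binds C-rich runs, read 11.48, 11.63 and 11.58, and all 6 of its probe sets were above 0 with WT, from 0.13 to 0.31. With delta72, 5 of the 6 were above 0.

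HNRNPD, also called AUF1, binds AU-rich elements and sets the decay of many messengers. It read 11.57, 11.63 and 11.53 on the control, WT and delta72 arrays. Of its 8 probe sets, 6 lay between 0.06 and 0.21 with WT, while the others were at -0.39 and -0.74. The last of these was at -0.74 with delta72 too, the largest difference of any probe set of the 39 genes in both comparisons.

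HNRNPC, which binds U-rich runs and keeps Alu elements out of exons, read 12.64, 12.62 and 12.55 on the control, WT and delta72 arrays, and its 6 probe sets stayed between -0.10 and 0.10 with WT. HNRNPL, which binds CA repeats, read 8.86, 8.82 and 8.85. HNRNPR read 11.95, 11.91 and 11.78, and its 3 probe sets were below 0 with both forms, from -0.42 to -0.04 with WT and from -0.25 to -0.17 with delta72.

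**Figure D4:**
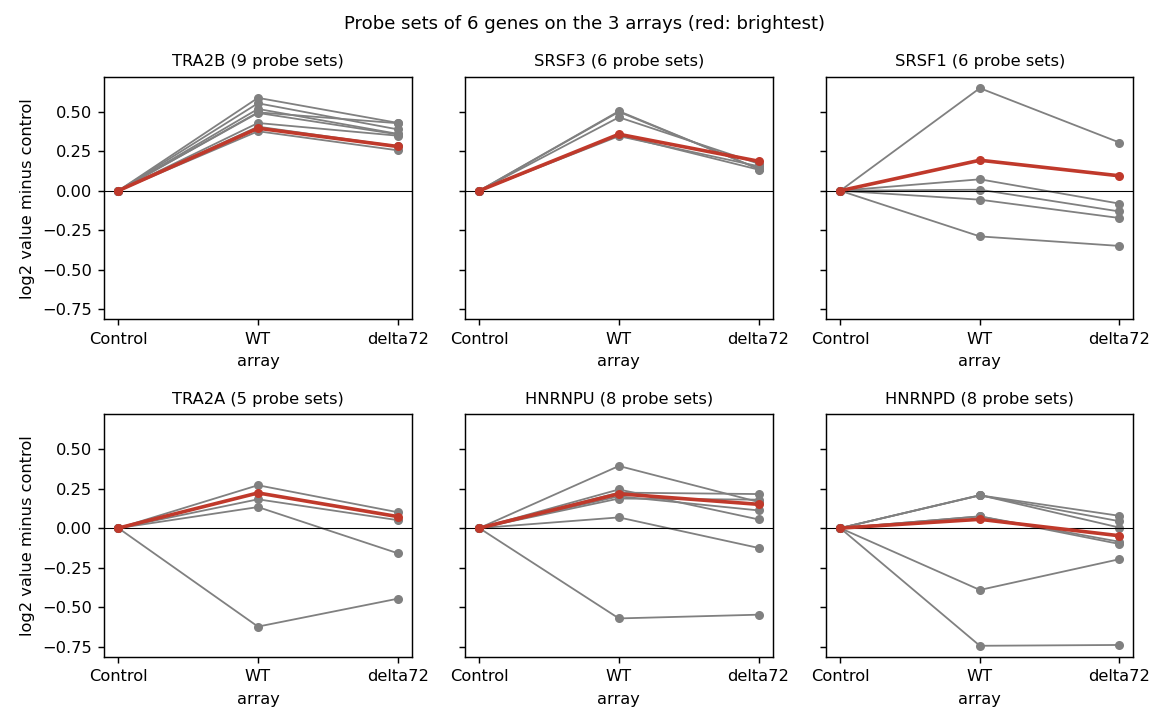
Log2 value minus that on the control array (vertical) on each of the 3 arrays (horizontal) for every probe set above the filter of TRA2B, SRSF3, SRSF1, TRA2A, HNRNPU and HNRNPD, brightest in red. The lines of TRA2B and SRSF3 run together, while TRA2A and HNRNPU have 1 line and HNRNPD 2 lines that lie below the control on both LOXL2 arrays.

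Probe sets of 1 gene often went different ways, in this set and on the whole array. Of the 36 genes with more than 1 probe set above the filter, 17 (47.2%) had probe sets on both sides of 0 with WT, against 39.2% of the 7163 such genes on the array. With delta72 it was 17 again, against 41.1%, and in delta72 minus WT 21 (58.3%), against 51.3%. Over all 158 probe sets above the filter, 104 were above 0 and 54 below with WT, 89 above and 69 below with delta72, and 43 above and 115 below in delta72 minus WT. Of the brightest probe sets, 15 carry the array maker's suffix for probes shared by several transcripts or genes and 5 the suffix for probes that may bind other sequences. Many hnRNP genes have processed pseudogenes, so such probe sets are uncertain. Which transcript a deviating probe set reads is not known, as the positions of the probes were not used here.

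Among the U2 and branch-site genes, 3 of 6 were above 0 with WT (median -0.0030) and 4 of 6 with delta72 (median 0.06). Between both forms 3 of 6 were lower with delta72, with a median of 0.02. The WT median changed sign under no scaling, but it was 0.05 with the median over probe sets. SF3A3, a subunit of the SF3a complex, read 10.13, 10.40 and 10.34 on the control, WT and delta72 arrays, but its second probe set gave 0.02 with WT. SF3A1 read 10.35, 10.33 and 10.40 and SF3B2 10.31, 10.33 and 10.38 on the same arrays, with delta72 the highest for both.

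SF3B1, the largest subunit of the SF3b complex, which holds the branch point, read 11.23, 11.17 and 11.22 on the control, WT and delta72 arrays. Its other 2 probe sets, both dimmer, gave 0.36 and 0.44 with WT, and 0.05 and 0.21 with delta72. The median over the 3 was 0.36 with WT, which would place SF3B1 past 0.32. SF3B3, another SF3b subunit, read 9.81, 9.62 and 9.61, a difference of -0.19 with each form, while 1 of its dimmer probe sets gave 0.05 and 0.06. U2AF2, the large subunit that binds the polypyrimidine tract, read 10.63, 10.83 and 10.72, with the WT array highest. Its second probe set above the filter differed by 0.0083 with WT and -0.14 with delta72.

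SNRNP70, the U1-70K protein that links the U1 particle to SR proteins, was the lowest gene of the set on both LOXL2 arrays. It read 10.05, 9.67 and 9.74 on the control, WT and delta72 arrays, 1.30-fold below control with WT (-0.38) and 1.24-fold with delta72 (-0.31). The control array was highest and the LOXL2 arrays lay close together. A second probe set has the same value on all 3 arrays (to within 0.01) and adds no independent reading, and another, below the filter, gave 0.11 and 0.13.

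Of the U5 and tri-snRNP genes, PRPF4 and PRPF6 read higher with WT and the others lay within 0.06 of control on both LOXL2 arrays. PRPF8, the scaffold at the catalytic core, read 11.33, 11.30 and 11.27 on the control, WT and delta72 arrays, and SNRNP200, the helicase that unwinds U4 from U6, read 11.11, 11.14 and 11.11. Of the 6 SNRNP200 probe sets, 5 stayed between -0.09 and 0.03 with WT. PRPF4, a U4/U6 protein, read 10.62, 10.85 and 10.81, with all 3 probe sets above 0 with both forms. PRPF6, which bridges U5 and U4/U6, read 7.43, 7.57 and 7.44 on 1 probe set.

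The kinases did not share a direction, and their medians of -0.0077 with WT and 0.01 with delta72 changed sign with the scaling or the choice of probe set. CLK1 read 9.45, 9.37 and 9.55 on the control, WT and delta72 arrays, so that delta72 was highest and WT lowest. In WT minus Control, 2 of its 3 probe sets were below 0 and 1 was above, at 0.16. All 3 of its probe sets were above 0 in delta72 minus WT, from 0.09 to 0.21, and in delta72 minus Control, from 0.10 to 0.25. CLK4, its close relative, read 8.62, 8.35 and 8.49, 1.20-fold below control with WT (-0.27, SD 0.14 over 6 probe sets). All 6 were below 0 with WT and with delta72, and 5 of 6 were above 0 in delta72 minus WT. SRPK1 read 9.04, 9.14 and 9.02 and SRPK2 9.14, 9.21 and 9.19, and all 3 probe sets of each were above 0 with WT, with 1 of each at 0.33 and 0.36.

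The 120 bases before the RefSeq start (GRCh38.p14) of the genes past 0.32 with WT are given because these are the members that set the ends of the range. Each runs 5′ to 3′ on the gene's strand, and capitals mark the motifs named below on either strand. RefSeq promoters could be matched for 37 of the 40 genes, among them 4 of these 5. SRSF3 lies at chr6:36594242-36594361 on the plus strand, TRA2B at chr3:185938015-185938134 on the minus strand, HNRNPM at chr19:8444855-8444974 and SNRNP70 at chr19:49085331-49085450, both on the plus strand.
SRSF3: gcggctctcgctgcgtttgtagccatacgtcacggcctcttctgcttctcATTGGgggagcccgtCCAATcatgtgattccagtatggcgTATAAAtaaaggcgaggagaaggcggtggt
TRA2B: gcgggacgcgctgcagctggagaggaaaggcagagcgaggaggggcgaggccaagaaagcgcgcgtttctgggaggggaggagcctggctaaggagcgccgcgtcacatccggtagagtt
HNRNPM: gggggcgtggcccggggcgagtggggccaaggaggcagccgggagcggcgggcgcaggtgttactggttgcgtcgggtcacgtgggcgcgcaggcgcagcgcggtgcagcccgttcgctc
SNRNP70: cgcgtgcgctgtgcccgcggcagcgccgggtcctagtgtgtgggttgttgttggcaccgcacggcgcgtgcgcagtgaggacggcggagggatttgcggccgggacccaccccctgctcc

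SRSF3 has a TATAAA that begins at -30 from the start and a CCAAT at -55 with an inverted CCAAT at -70, while the other sequences hold none of the 5 motifs searched in these 120 bases. They were the CCAAT box, the TATA box TATAAA, the GC box GGGCGG, the ETS core CCGGAAG and the palindromic NRF1 site, each read on both strands over windows from 250 bases before to 50 after the start. CCAAT was found in 10 of all 37 promoters, or 27.0%, against 36.5% of the 9954 promoters of genes above the filter. By group it was in 8 of 12 hnRNP promoters, 1 of 10 SR promoters and 0 of 6 U2 promoters. It was also in 1 of 5 U1, U5 and tri-snRNP promoters and 0 of 4 kinase promoters. These 6 U2 promoters are not those of the 6 U2 genes read on the array. They include U2AF1, which was not read, and lack SF3B3, which was. CCGGAAG was found in 4 of 6 U2 promoters and 10 of all 37, or 27.0%, against 18.5%. GGGCGG was in 24 of 37, or 64.9%, against 68.8%, TATAAA in 4, or 10.8%, against 6.06%, and the NRF1 site in 0 against 2.28%. The promoters of the set had a median of 65.0% G and C and 31.0 CpG dinucleotides in this window, against 65.0% and 26 for genes above the filter. In this wider window the GC box was present for TRA2B and SNRNP70 and the CCAAT and TATA boxes for SRSF3, while none of the 5 was found for HNRNPM.

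Other RNA processing genes were read through 10 further lists, which hold 173 genes above the filter in all. Together 109 of 173 (63.0%) were above 0 with WT and 106 (61.3%) with delta72, against 48% and 49.7% of all genes, and 69 (39.9%) in delta72 minus WT, against 50.4%. With WT, 23 (13.3%) were past 0.32 upwards and 5 (2.89%) downwards, against 9.92% and 7.12% of all genes.

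The exon junction complex and export list had 17 of 19 genes above 0 with WT and 18 of 19 with delta72, with a median of 0.15 in each. Its highest gene was MAGOHB, a copy of the exon junction protein Mago, at log2 8.24, 9.04 and 8.81 on the control, WT and delta72 arrays, a WT difference of 0.81. The other U1, U2, U5 and tri-snRNP proteins were above 0 in 21 of 24 with WT (median 0.12) and 19 of 24 with delta72 (median 0.11). With the median over each gene's probe sets, the WT count was 18 of 24 and its median 0.06. SF3A2, the partner of SF3A1 and SF3A3, was the lowest at -0.46 and -0.16. The Prp19 complex and step factor list had medians of 0.14 and 0.12, with PRPF18, a second-step factor, highest at 0.61 and 0.50. In the cleavage and polyadenylation list, 6 of 18 genes were past 0.32 upwards and 2 downwards with WT, or 33.3% and 11.1% against 9.92% and 7.12% of all genes, with CPSF6 at 0.47 and CSTF3 at -0.59. Its WT median was 0.10, and 0.05 with the median over each gene's probe sets.

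The Sm and LSm proteins, the ring around each snRNA, leaned the other way with delta72, where 11 of 13 (84.6%) were below 0, against 49.8% of all genes. With WT it was 8 of 13 (61.5%), against 51.7%, which is nearer the share of all genes. The medians were -0.09 with WT and -0.08 with delta72. LSM2 was the lowest, at -0.34 and -0.32. The other kinases and phosphatases had a WT median of -0.12, with CLK2 at -0.41 and -0.33 and DYRK2 at 0.48 and 0.43. The further hnRNPs and related proteins did not follow the 12 hnRNPs above, with 9 of 20 above 0 and a median of -0.05 with WT, although their delta72 minus WT values were below 0 in 15 of 20. Of these, HNRNPAB was highest with WT at 0.35, and TAF15 was at 0.26 with WT, -0.17 with delta72 and -0.43 between both forms.

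In the list of other SR and SR-related genes, SRSF8 stood out at log2 5.62, 6.67 and 6.15 on the control, WT and delta72 arrays, a WT difference of 1.04 on 1 probe set near the filter value. SRSF8 is an expressed retrocopy of SRSF2, so probes for one may bind the other, and its value is uncertain. Of the 21 genes in that list, 6 (28.6%) were past 0.32 upwards with WT and 0 downwards, against 9.92% and 7.12% of all genes. The WT median of 0.02 was -0.02 with a common array median and 0.12 with the median over each gene's probe sets, where 15 of 21 were above 0. The regulators of tissue-specific exons were even, with 8 of 16 above 0 with each form. ESRP1 and ESRP2, which set epithelial exon choice, were at -0.23 and 0.30 with WT and at -0.19 and 0.10 with delta72. The minor spliceosome list was even too, with 4 of 8 above 0 with each form and SNRNP48 highest at 0.48 and 0.41.

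**Figure D5:**
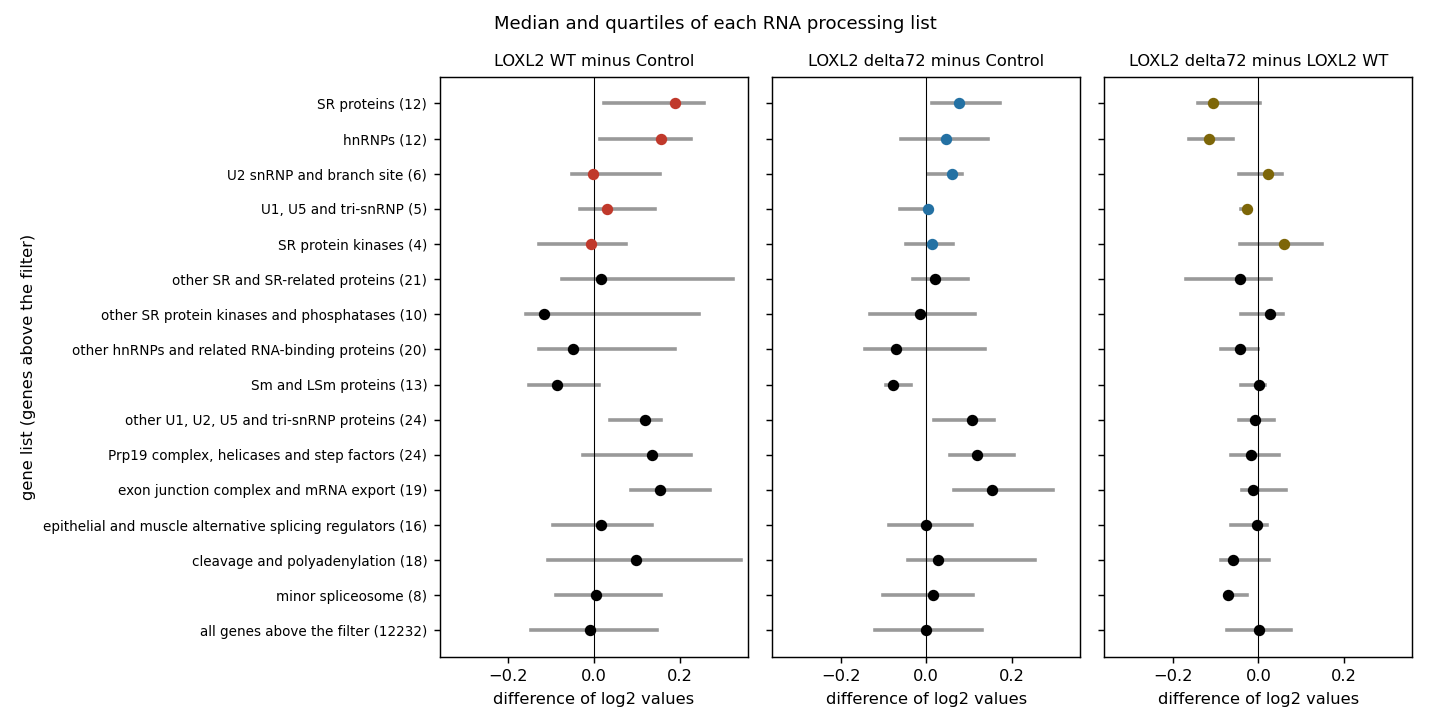
Median (point) and quartiles (bar) of the difference of log2 values (horizontal) for each group of splicing genes (coloured) and each further RNA processing list (black), with the number of genes above the filter in parentheses and all genes at the bottom, 1 panel per comparison. The SR and hnRNP medians lie at 0.19 and 0.16 with WT and at -0.11 and -0.12 in delta72 minus WT, and the Sm and LSm median lies below 0 against control with both forms.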

How the data were processed

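The authors deposited 1 table of log2 intensities, 1 value per probe set and array, for 49395 probe sets on 3 arrays. The unit was read from the values, which lie between 2.07 and 14.56. Total RNA (100 ng) was amplified and biotin-labelled, per the labels' protocols. Partek and Affymetrix Expression Console are named per the submitters' processing notes, whereas how the arrays were normalized is not stated there. The differences are relative, and the level to which they are relative is not known. Having 1 array per condition limits the precision.

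Probe sets with 1 gene symbol were used, and the brightest (highest mean of the 3 arrays) stood for its gene. The filter was the 40th percentile of such means over non-control probe sets (log2 5.27). Differences were counted past log2 0.32 and at 1.5-fold, with no test. Other scalings, filters and probe set rules were tried. The counting was tested on simulated arrays. The genes named were all members and, from each further list, the highest and lowest gene of each comparison, besides LOXL2. KRT15, DSG3, PTPRC and CD68 were named from the marker lists after their values were seen. The members and lists were chosen with earlier results of these data known. Entrez identifiers of all 39 genes gave the same symbol in RefSeq. Python 3.11.15 with pandas 2.3.3 was used.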

Additional observations from a re-analysis of the deposited data

Results flagged for a closer look

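For 8 of the 39 genes the WT and delta72 arrays lay on opposite sides of the control array (20.5%), as they did for 18.1% of all genes above the filter. With 1 array per condition this difference was not tested, and both differences share the control array. Against WT, delta72 was lower for HNRNPF (-0.22), HNRNPA2B1 (-0.21), SRSF7 (-0.14), SRPK1 (-0.12) and HNRNPD (-0.10), and higher for CLK1 (0.18), SF3A1 (0.0674) and SRSF9 (0.0596). The probe sets above the filter that lay on opposite sides were 4 of 4 for SRSF7, 2 of 3 for SF3A1 and for CLK1, 1 of 2 for HNRNPA2B1, 3 of 7 for HNRNPF, 3 of 8 for HNRNPD, 1 of 3 for SRPK1 and 1 of 4 for SRSF9.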

How the results depend on the processing

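The WT minus Control median of the 39 genes, 0.0955 as deposited, was 0.0543 with the arrays shifted to a common median, 0.0490 after quantile normalization and 0.0611 after the lowess correction. The delta72 minus Control median, 0.0497, was 0.0170 with the common median. That shift moved the median of all genes from -0.0094 to -0.0507 with WT, the share of all genes past 0.32 upwards from 9.92% to 7.82% and the share downwards from 7.12% to 10.01%, and the share of all genes above 0 from 48% to 40.6%, with 22 of the 39 (26 as deposited) above 0. With the common median, SRSF3 fell short of 0.32 with WT, and SNRNP70 became the 1 gene past it downwards with delta72. The count past 0.32 upwards with delta72, 0 as deposited, was 1 after quantile normalization (HNRNPM) and 1 with each gene's median probe set difference, whether over all (planned) or over those above the filter (chosen after seeing the data). In both the gene was TRA2B. Neither no filter nor the 60th percentile filter changed a value of the 39 genes. No paired analysis was possible because each condition had 1 array, and no array could be left out for the same reason. The precision of every value is limited by the number of arrays.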

Other observations

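Several further genes named from the RNA processing lists are given here on their brightest probe sets. Each was the highest or lowest of its list in a comparison, and some of the differences are small. Those of EIF4A3 lay within the pooled probe-set SD over all genes, 0.170 for WT and 0.145 for delta72 against control. RBM25, an SR-related protein, differed from control by -0.14 with WT and -0.16 with delta72. PTBP2, the neuronal form of the polypyrimidine tract binding protein, read 0.34 and 0.35 above control, while its relative PTBP3 was at -0.12 and -0.33. Of the tri-snRNP proteins, SART1 was at 0.33 and 0.30 and PRPF3 at 0.32 and 0.34. MAGOH, the paralogue of MAGOHB, was at 0.15 with WT and 0.34 with delta72, so that delta72 was the higher array for MAGOH and the lower of both for MAGOHB (delta72 minus WT of 0.19 and -0.23). PCF11, a transcription termination factor, was at 0.37 with WT and 0.06 with delta72. HNRNPUL2 was at -0.29 with WT and 0.05 with delta72. EIF4A3, the helicase of the exon junction complex, was at -0.14 and -0.05, and DDX39B, an export helicase, at -0.27 and -0.23. RBFOX2, a regulator of mesenchymal exons, was at -0.21 and -0.14. None of these differences had a replicate check.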
